A study of Mus musculus with 36 samples.

Results

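The 34 interferon-stimulated genes described here are transcripts that cells switch on when an interferon binds its receptor, and they were followed through cultured mouse dendritic cells (DCs). They were taken as a list of names, drawn up with earlier results of these data known, and 32 of the 34 had a transcript cluster of their own among the 19938 genes measured. *Gbp2* was measured only by a cluster shared with *Gbp2b*, no cluster was listed for *Ifi44*, and neither was given a value. In DCs carrying thrombomodulin on their surface (TM+ DCs), 24 of the 32 genes were lower than in the remaining DCs (TM- DCs), where 18.7% of all genes were lower. This did not hold in each experiment: in experiment 2 the median difference was -0.06 on the log2 scale, with 15 genes above 0 and 17 below. After soluble thrombomodulin (sTM), 31 of the 32 rose in the sorted cells of experiment 3, where 3.61% of all genes rose. In those of experiment 4 none passed the test in the fit over all arrays, where 0.406% of all genes passed. In a fit of the sorted cells of experiments 3 and 4 only, 15 were lower after sTM in experiment 4.

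Type I interferons bind a shared receptor, whose kinases activate transcription factors that include STAT2. In a complex with IRF9 these bind a short repeated element in the promoters of the target genes. The products block viral entry, RNA and protein synthesis, and some of them, such as IRF7, STAT2 and IRF9, are part of the pathway itself, so that a first wave of interferon raises the capacity for the next. In DCs the same program accompanies maturation after contact with microbial products, and many cells hold a low constitutive level of it.

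DCs were grown from the bone marrow of Balb/c mice in 100 ng/ml GM-CSF and harvested on day 6, and the treated cultures received 200 nM sTM, the extracellular part of thrombomodulin, from day 4. Cells were either left unsorted or separated on magnetic beads into TM+ and TM- fractions, which the labels state to be more than 93% pure. RNA of 36 samples was hybridised to 36 arrays in 4 experiments. Balb/c mice carry an *Mx1* gene that makes no functional Mx1 protein, so its signal here is a transcript level only.

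The unsorted DCs filled 8 untreated and 8 sTM-treated arrays, of which 4 and 4 came from experiment 1, 2 and 2 from experiment 2, and 2 and 2 from experiment 3. Sorted DCs filled 2 arrays for each fraction and treatment in experiments 3 and 4. In experiment 2 only sTM-treated cultures were sorted, into 2 TM- and 2 TM+ arrays. Arrays of a group within an experiment are called biological replicates in the labels, but whether they came from separate mice or cultures was not given, so the p-values measure the spread between these samples, which may be technical. In the results below, a culture stands for all cells of a single experiment and treatment, which may have come from several dishes.

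All levels are log2 of the deposited intensity, and a difference of 1 on this scale is a doubling. The array medians lay between 6.88 and 7.15. The 18 DC markers summed to intensities of 33775 to 53838 per array, whereas 14 T and NK cell markers summed to 619 to 1070 and 10 B cell markers to 684 to 1076. *Thbd*, which encodes thrombomodulin, lay between 5.65 and 6.92 in all 36 arrays and followed the sort in some cultures only. TM+ arrays lay above TM- arrays in untreated experiment 3, at 6.66 and 6.92 against 5.83 and 6.06, and in treated experiment 4, at 6.26 and 6.11 against 5.90 and 5.92. In experiment 2 they lay below them, at 6.20 and 6.09 against 6.21 and 6.50, and in treated experiment 3 and untreated experiment 4 the fractions overlapped. In experiment 1 the sTM-treated arrays 1 and 2 stood apart from arrays 3 and 4, with a mean over the 32 genes of 9.18 and 9.03 against 10.01 and 10.28. In experiment 3 the second sTM-treated TM- array stood below the first for *Ifit3*, at 9.35 against 11.01, while its mean over all genes was 7.42 against 7.26. Counts of the 32 genes that rest on it are given below without it or as a range over arrays left out. Calls in the further gene lists were not tested without it.

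To show the element through which type I interferons are known to act, the promoters of 3 of the genes that hold it are printed here: *Ifit1*, an RNA-binding inhibitor of translation, *Rsad2*, which encodes the radical enzyme viperin, and *Bst2*, which encodes the virus-retaining membrane protein tetherin. Each sequence is the 160 bases before the RefSeq start on GRCm38.p6, written 5′ to 3′ on the strand of the gene, at chr19:34640729-34640888 on the plus strand for *Ifit1*, chr12:26456453-26456612 on the minus strand for *Rsad2* and chr8:71537473-71537632 on the minus strand for *Bst2*. The capitals mark matches, on either strand, to 2 copies of TTTC with 2 bases of any kind between them, the repeated core of the interferon-stimulated response element, and in *Bst2* they hold 2 overlapping matches on the opposite strand.
Ifit1: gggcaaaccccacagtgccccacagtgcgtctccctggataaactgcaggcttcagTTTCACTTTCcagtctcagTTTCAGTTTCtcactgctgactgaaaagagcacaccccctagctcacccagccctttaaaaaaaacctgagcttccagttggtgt
Rsad2: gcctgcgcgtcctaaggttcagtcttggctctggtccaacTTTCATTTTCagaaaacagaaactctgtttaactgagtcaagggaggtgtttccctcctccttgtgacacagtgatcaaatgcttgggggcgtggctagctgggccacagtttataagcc
Bst2: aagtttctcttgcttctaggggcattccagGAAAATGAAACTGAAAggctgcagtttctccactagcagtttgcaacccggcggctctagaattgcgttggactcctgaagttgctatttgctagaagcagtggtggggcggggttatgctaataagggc

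Of the 34 genes, 24 had a promoter in the RefSeq table. In the 250 bases before the start, the repeated TTTC was found on either strand in 10 of these 24 (41.7%), namely *Bst2*, *Gbp2*, *Gbp3*, *Ifit1*, *Ifit3*, *Oas1a*, *Oas3*, *Rsad2*, *Stat2* and *Trim30a*. Over all genes with a promoter in the table it was found in 936 of 27025 (3.46%). The sequence TTCNNNGAA, the form bound by STAT dimers in the response to interferon gamma, was found in *Bst2*, *Eif2ak2*, *Ifit2* and *Oas1a*, which is 16.7% of the 24, against 8.13% of all genes. A match is a description of the letters in this window, and binding was not measured.

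The 32 genes varied more across the arrays than most genes and largely in parallel. Their median SD over the 36 arrays was 0.80 on the log2 scale, compared to 0.28 for all genes, and 17 of the 32 lay above the 95th percentile of all genes. *Rsad2* had the widest range, 5.93. Among the 496 pairs of genes the median Pearson r over the 36 arrays was 0.74, with 494 pairs above 0 and extremes of -0.17 and 0.97. Against the mean of the remaining genes, *Mx1* had the lowest r, 0.22, followed by *Samd9l* at 0.52, *Dtx3l* at 0.61 and *Eif2ak2* at 0.63. These arrays share experiments, and the r values are descriptions.

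The mean level over the 32 genes set all groups apart in experiment 4, while some groups overlapped in experiments 1, 2 and 3. In experiment 3 it was 9.40 and 9.30 in untreated TM- DCs and 7.94 and 7.97 in untreated TM+ DCs. After sTM it was 10.75 and 10.57 in TM- DCs and 9.78 and 9.91 in TM+ DCs. In experiment 4 it was 9.94 and 9.87 in untreated TM- DCs, 9.60 and 9.56 in treated TM- DCs, 8.64 and 8.57 in untreated TM+ DCs and 8.31 and 8.14 in treated TM+ DCs. Thus the lowest arrays of experiment 3 were untreated TM+ DCs, and those of experiment 4 were treated TM+ DCs. In experiment 2 the unsorted arrays were at 9.15 and 9.10 untreated and 8.54 and 8.61 after sTM, below both treated fractions, which were at 9.15 and 9.33 for TM- and 9.11 and 9.24 for TM+ DCs. Over all measured genes, not these 32 alone, the most similar array lay in the same experiment for 36 of 36 arrays and in the same group for 24 of 36. Between duplicate arrays the median SD of the 32 genes was 0.0438 to 0.170 over the 14 duplicate sets. Over the 4 arrays of experiment 1 it was 0.162 untreated and 0.582 after sTM.

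**Figure D1:**
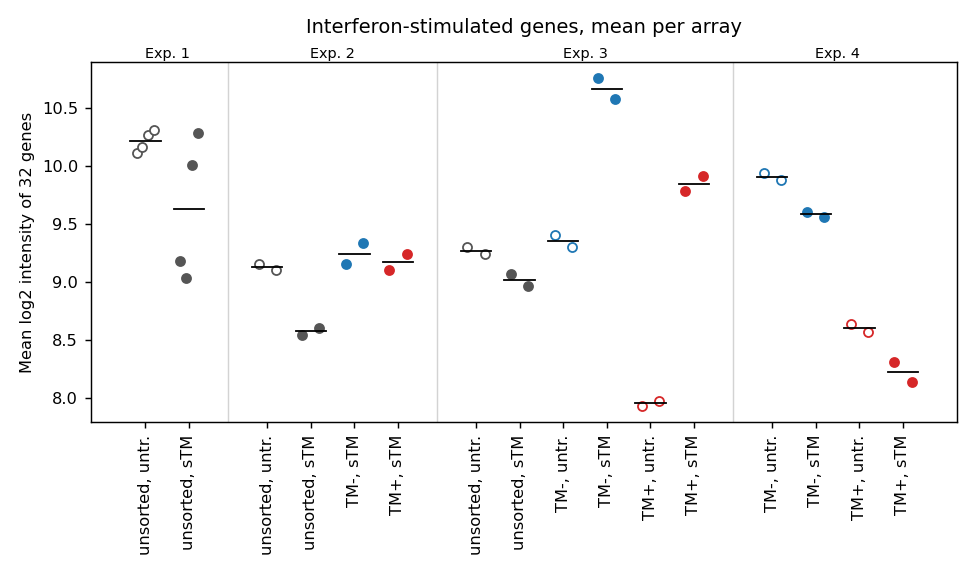
Mean log2 intensity of the 32 interferon-stimulated genes on each of the 36 arrays, by experiment and fraction (open symbols, untreated; filled, sTM-treated; black line, mean of a group; grey, unsorted; blue, TM-; red, TM+). The untreated TM+ arrays of experiment 3 sit lowest at 7.94 and 7.97, and the sTM-treated TM- arrays of the same experiment sit highest at 10.75 and 10.57.

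**Figure D2:**
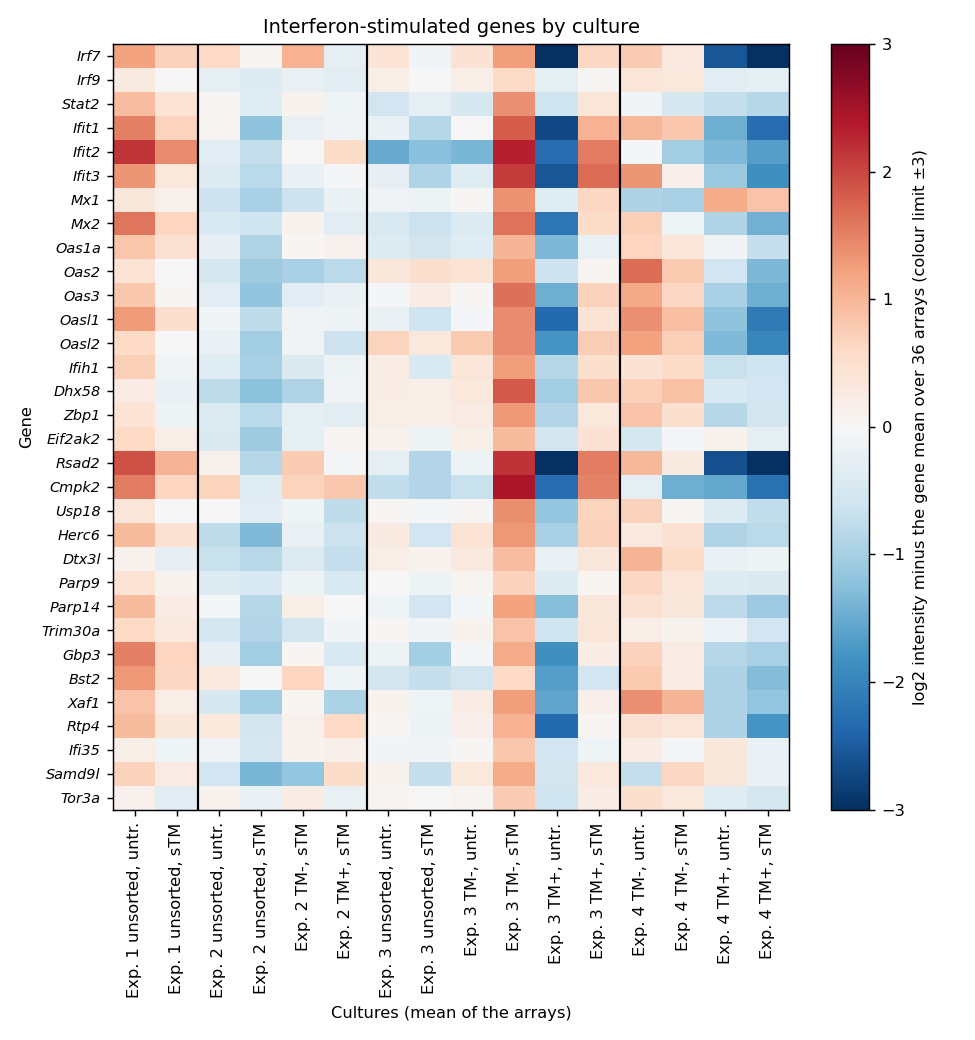
Level of each of the 32 genes in each experiment, fraction and treatment, as the group mean minus the mean of that gene over all 36 arrays (log2 scale, colour limits at 3 above and below 0; vertical lines separate experiments). Most genes share one pattern of columns, with *Mx1* and *Samd9l* departing from it, as their r values of 0.22 and 0.52 with the remaining genes show.

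TM+ DCs had lower levels of most interferon-stimulated genes than TM- DCs. The comparison asks whether the sorted populations differ in this program irrespective of treatment, and it drew on all 20 sorted arrays with the experiment as a random block. After adjustment over all 19938 genes, 24 of the 32 genes were lower in TM+ DCs and 0 higher, where 18.7% of all genes were called lower and 18.6% higher. The median difference was -1.0 on the log2 scale for the 32 genes and -0.08 for all genes. In bulk samples, fewer cells with a transcript and less transcript per cell cannot be told apart. Centring each array on its 75th percentile gave 28 lower genes but moved the median over all genes to -0.20 and the share of higher calls among all calls from 49.9% to 24.5%.

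*Irf7*, the transcription factor that amplifies type I interferon production, differed most. In TM- DCs it lay at 11.89 and 12.16 in treated experiment 2, 11.44 and 11.39 untreated and 12.35 and 12.12 treated in experiment 3, and 11.77 and 11.70 untreated and 11.28 and 11.26 treated in experiment 4. The corresponding TM+ arrays were at 10.57 and 10.80 in experiment 2, 7.85 and 7.99 untreated and 11.52 and 11.66 treated in experiment 3, and 8.29 and 8.54 untreated and 7.79 and 7.70 treated in experiment 4. Within every one of these cultures the TM+ arrays were below the TM- arrays, although treated TM+ arrays of experiment 3 overlapped TM- arrays of experiment 4. The fitted difference was a decrease by 2.62 (SE 0.37, 6.15-fold, adjusted p = 1e-05).

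*Rsad2* followed with a decrease by 2.58 (SE 0.51, adjusted p = 0.000453). Its TM- arrays were at 10.77 and 11.05 in experiment 2, at 10.09 and 9.92 untreated and 12.58 and 12.04 treated in experiment 3, and at 11.19 and 11.08 untreated and 10.48 and 10.37 treated in experiment 4. Its TM+ arrays were at 10.08 and 10.15 in experiment 2, at 6.66 and 6.66 untreated and 11.61 and 11.78 treated in experiment 3, and at 7.35 and 7.70 untreated and 6.81 and 6.75 treated in experiment 4. As with *Irf7*, the fractions did not overlap within a culture, and the gap was narrowest in the treated cells of experiments 2 and 3.

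*Ifit1* fell by 1.92 (SE 0.42, adjusted p = 0.00107), but not in every culture. Untreated TM- arrays were at 8.68 and 8.57 in experiment 3 and 9.72 and 9.56 in experiment 4, against TM+ arrays at 6.21 and 5.64 and at 7.25 and 7.07. Treated TM- arrays were at 8.11 and 8.73 in experiment 2, 10.81 and 10.09 in experiment 3 and 9.46 and 9.43 in experiment 4, against TM+ arrays at 8.47 and 8.57, at 9.44 and 9.92, and at 6.51 and 6.18. In experiment 2 the fractions overlapped, and in experiments 3 and 4 they did not.

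Every functional group held lower genes. Among the transcription factors *Irf9* fell by 0.51 (SE 0.08, adjusted p = 5.22e-05) while *Stat2* differed by -0.46 without passing (adjusted p = 0.0711). Of the IFIT family, which binds viral RNA, *Ifit3* fell by 1.54 (SE 0.48, adjusted p = 0.0161) and *Ifit2* differed by -0.69 (SE 0.47, adjusted p = 0.237). The OAS family senses double-stranded RNA or, for the OAS-like members, modulates RNA sensing and *Irf7* translation, and all 5 of its measured genes fell, from *Oas1a* by 0.81 to *Oasl2* by 1.91 (SE 0.29, adjusted p = 2.14e-05). Of the cytosolic sensors, *Ifih1* fell by 0.86, *Dhx58* by 0.92 and *Zbp1* by 1.06, while *Eif2ak2*, the kinase PKR that halts translation, differed by -0.08 (adjusted p = 0.694).

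*Oasl1* and *Dhx58* show how the fractions lay in individual arrays. For *Oasl1* the TM- arrays were at 9.65 and 9.81 in experiment 2, 9.77 and 9.77 untreated and 11.29 and 11.19 treated in experiment 3, and 11.13 and 11.26 untreated and 10.74 and 10.72 treated in experiment 4. The TM+ arrays were at 9.57 and 9.79, at 7.57 and 7.44 and then 10.18 and 10.31, and at 8.69 and 8.57 and then 7.74 and 7.70, in the same order. Only in experiment 2 did the *Oasl1* arrays of both fractions overlap. *Dhx58*, which encodes the RNA sensor LGP2, was at 8.60 and 8.44 in TM- DCs of experiment 2 and above that, at 9.23 and 9.36, in TM+ DCs. In experiments 3 and 4 the order was the opposite, with untreated TM- arrays at 9.76, 9.69, 10.14 and 10.13 and untreated TM+ arrays at 8.31, 8.46, 8.95 and 8.95. Treated TM- arrays there were at 11.15, 11.35, 10.29 and 10.30, and treated TM+ arrays at 10.13, 10.31, 8.94 and 8.76, again without overlap within an experiment.

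Genes of feedback and protein modification were lower too. *Usp18*, which removes ISG15 from proteins and restrains receptor signalling, fell by 0.93 (SE 0.23, adjusted p = 0.00281), and *Parp14*, *Herc6*, *Dtx3l* and *Parp9* fell by 1.03, 1.03, 0.70 and 0.66. *Herc6*, the ligase that attaches ISG15 in mice, was at 9.72 and 9.86 in TM- and 9.23 and 9.50 in TM+ DCs of experiment 2. In untreated experiments 3 and 4 its TM- arrays were at 10.38, 10.45, 10.52 and 10.08 and its TM+ arrays at 8.98, 9.07, 9.20 and 9.01, and in the treated ones at 11.73, 10.87, 10.51 and 10.43 against 10.60, 10.82, 9.31 and 9.11. The *Herc6* arrays of the fractions did not overlap in any culture, and lay closest in the treated cells of experiment 3.

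Among the remaining genes, *Xaf1*, a pro-apoptotic gene, fell by 1.74 (SE 0.21, adjusted p = 1.68e-06), *Rtp4* by 1.40, *Bst2* by 1.29 (SE 0.18, adjusted p = 1.16e-05) and *Gbp3*, a guanylate binding protein of host defence, by 1.28 (SE 0.21, adjusted p = 5.41e-05). *Xaf1* was at 8.98 and 9.23 in TM- against 7.98 and 8.22 in TM+ DCs of experiment 2, at 9.43 and 9.12 against 7.44 and 7.51 untreated and 10.20 and 10.41 against 9.14 and 9.29 treated in experiment 3, and at 10.50 and 10.36 against 8.14 and 8.10 untreated and 10.09 and 10.04 against 7.94 and 7.86 treated in experiment 4. *Gbp3* was at 8.94 and 9.02 against 8.39 and 8.59, at 9.05 and 8.77 against 6.99 and 7.20, at 10.15 and 9.99 against 9.11 and 9.24, at 9.69 and 9.60 against 8.13 and 8.05, and at 9.26 and 9.12 against 8.02 and 7.92 in the same cultures. For *Xaf1* and *Gbp3* alike, every TM+ array was below the TM- arrays of its own culture.

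The genes that did not pass were *Cmpk2* at -0.98, *Ifit2* at -0.69, *Stat2* at -0.46, *Trim30a* at -0.39, *Ifi35* at -0.30, *Eif2ak2* at -0.08, *Samd9l* at 0.06 and *Mx1* at 0.67. Taken by treatment, 23 genes were lower in untreated TM+ DCs (median -1.28, with 7.93% of all genes called lower) and 15 in sTM-treated TM+ DCs (median -0.73, with 12.4%), and 0 were higher in either. The treated count moved with the arrays and the fit. It was 6 without experiment 4, 6 with no term for the experiment, 7 without either treated TM+ array of experiment 4, and 10 without the second treated TM- array of experiment 3. It rose to 24 with each array centred on its 75th percentile.

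**Figure D3:**
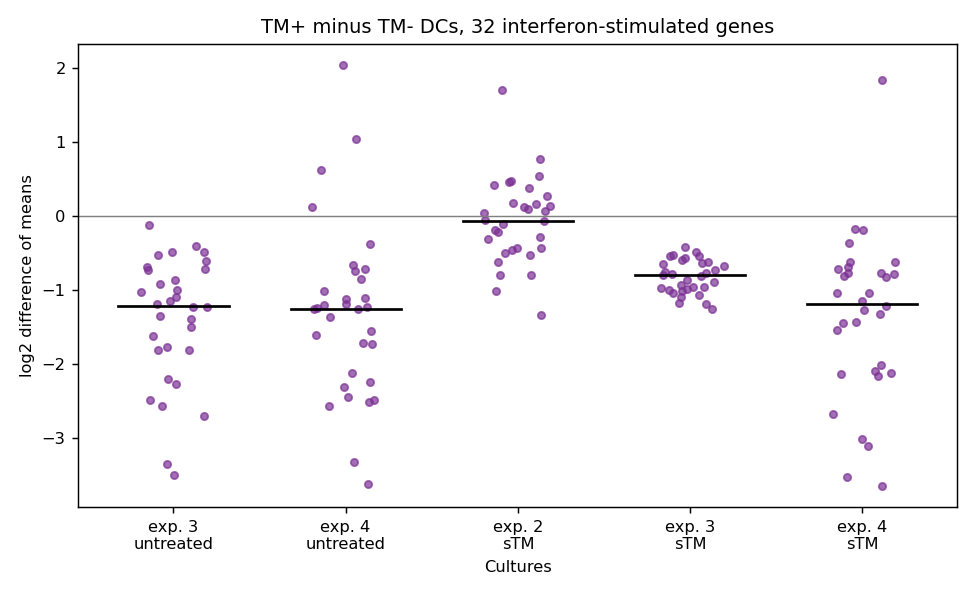
Difference between TM+ and TM- DCs of the same experiment and treatment (log2 scale, mean of 2 arrays minus mean of 2 arrays) for the 32 genes, in the 5 sets of experiment and treatment that were sorted. Points are genes and black lines medians. Medians lie at -1.21 and -0.80 in experiment 3 and -1.25 and -1.18 in experiment 4, and at -0.06 in experiment 2, where 15 of the 32 points are above 0.

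The cultures differed in how many genes followed this direction. In untreated experiment 3 all 32 genes had both TM+ arrays below both TM- arrays, where 21.6% of all genes did so, and the median difference was -1.21. After sTM in the same experiment it was 31 of 32 genes, against 32.1% of all genes, with *Ifit3* as the exception and a median of -0.80. In untreated experiment 4, 28 genes lay lower and 4 lay higher without overlap, against 51.9% and 30% of all genes, and the median was -1.25. After sTM in that experiment 30 lay lower and 1 higher, against 42.9% and 30.3%, with a median of -1.18. In experiment 2, where only treated cells were sorted, 15 lay lower and 9 higher, against 28.8% and 26.9% of all genes, and the median was -0.06.

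In experiment 2 the genes with all TM+ arrays higher were *Samd9l*, *Dhx58*, *Ifit2*, *Rtp4*, *Trim30a*, *Mx1*, *Eif2ak2*, *Ifih1* and *Oas3*. *Samd9l*, which encodes a cytosolic antiviral and growth-restraining protein, had the widest gap among them, at 8.51 and 8.43 in TM+ against 6.44 and 7.08 in TM- DCs. *Irf7*, *Xaf1*, *Rsad2* and *Bst2* moved the other way in that experiment, with mean differences of -1.34, -1.01, -0.80 and -0.79.

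*Mx1*, a dynamin-like GTPase that in other strains blocks influenza virus, changed direction between experiments. In experiment 3 its TM- arrays were at 8.22 and 7.83 untreated and 9.60 and 9.05 treated, and its TM+ arrays at 7.62 and 7.63 untreated and 8.50 and 8.71 treated. In experiment 4 the TM- arrays were at 7.06 and 7.06 untreated and 7.12 and 6.87 treated, while the TM+ arrays were at 9.10 and 9.10 and at 8.85 and 8.82. The fractions therefore did not overlap in either experiment, with TM+ DCs lower in experiment 3 and higher in experiment 4. The difference between fractions, as a mean over untreated and treated cells, was 2.50 greater in experiment 4 than in experiment 3 (limma, SE 0.23, adjusted p = 1.85e-07).

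Tested in the same way, as a mean over untreated and treated cells, 7 genes differed between the experiments in the gap between fractions. The gap was greater, that is, shifted toward TM+ DCs, in experiment 4 for *Mx1*, *Samd9l* by 0.94 (SE 0.25, adjusted p = 0.0197), *Eif2ak2* by 0.84 (SE 0.24, adjusted p = 0.0302) and *Ifi35* by 0.74 (SE 0.14, adjusted p = 0.00167), and 4.31% of all genes were called in this direction. It was shifted toward TM- DCs, on which 3.09% of all genes were called, for *Rsad2* by -1.65 (SE 0.51, adjusted p = 0.0448), *Irf7* by -1.35 (SE 0.31, adjusted p = 0.00745) and *Oasl2* by -0.97 (SE 0.27, adjusted p = 0.0241). Leaving out single arrays gave 3 to 10 such genes, and a fit of the sorted arrays of these experiments alone gave 16, of which 4 were shifted toward TM+ and 12 toward TM- DCs. *Samd9l* was at 8.52 and 8.04 in untreated TM+ and 7.31 and 7.17 in untreated TM- DCs of experiment 4, and at 7.33 and 7.42 against 8.28 and 8.20 in experiment 3. Its treated TM+ arrays lay below the treated TM- arrays in both experiments, at 8.03 and 7.44 against 8.62 and 8.48 in experiment 4. For *Irf7*, *Rsad2* and *Oasl2*, the fractions of these experiments lay closest in the treated cells of experiment 3. The gap of a single treatment was not tested between the experiments.

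The response of sorted DCs to sTM asks whether the treatment itself changed the program, and here the experiments went apart. In the sorted cells of experiment 3, 31 of the 32 genes rose after sTM and 0 fell, where 3.61% of all genes rose, and the median difference was 1.39 over both fractions. In experiment 4 no gene passed in the fit over all 36 arrays (limma, 0 higher and 0 lower), 14 had an unadjusted p under 0.05, 27 of the 32 values were below 0, and the median was -0.34. Of all genes 0.406% passed there. This count depended on the fit: 15 genes were lower in a fit of the sorted arrays of experiments 3 and 4 alone, 14 were lower without experiment 1, and with array weights 20 were lower and 1 higher. The difference between the experiments was itself tested: 27 genes had a higher response in experiment 3, where 1.82% of all genes did, and the median of the differences was 1.66. Over all 20 sorted arrays, which include the treated arrays of experiment 2 with no untreated counterpart, the median was 0.54, no gene passed (0 of 32, with 17 at an unadjusted p under 0.05), and 3 of all 19938 genes (0.015%) did so. Without experiment 4 the count was 24 genes higher, and without experiment 3 it was 1 gene lower.

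*Ifit2*, an RNA-binding member of the IFIT family, responded most in experiment 3. Its untreated arrays there were at 6.73 and 6.27 in TM- and 5.62 and 5.55 in TM+ DCs, and its treated arrays at 10.49 and 9.92 and at 9.31 and 9.48. In experiment 4 untreated arrays were at 7.81 and 7.80 in TM- and 6.75 and 6.34 in TM+ DCs, and treated arrays at 6.98 and 6.69 and at 6.25 and 6.17. Treated arrays were thus above untreated ones in experiment 3 and below them in experiment 4, with no overlap in either fraction. The response was 3.75 in experiment 3 (SE 0.37, 13.5-fold, adjusted p = 9.85e-08), and the difference between experiments was 4.41 (SE 0.53, adjusted p = 4.71e-06). The treated TM- and TM+ DCs of experiment 2, which had no untreated sorted counterpart, were at 7.71 and 8.03 and at 8.28 and 8.56.

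*Mx2*, the other mouse gene for an Mx GTPase, responded by a smaller amount. In experiment 3 it was at 6.82 and 6.44 in untreated and 8.79 and 8.52 in treated TM- DCs, and at 4.62 and 5.12 in untreated and 7.52 and 7.67 in treated TM+ DCs. In experiment 4 it was at 7.84 and 7.65 and then 6.87 and 6.96 in TM- DCs, and at 6.25 and 6.02 and then 5.73 and 5.45 in TM+ DCs. Its response in experiment 3 was 2.38 (SE 0.40, adjusted p = 0.000259). In experiment 2 the treated arrays were at 7.04 and 7.26 in TM- and at 6.44 and 7.0 in TM+ DCs.

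Both fractions of experiment 3 responded. In TM+ DCs the differences ran from 0.31 to 5.04 with a median of 1.64, and in TM- DCs from 0.38 to 3.70 with a median of 1.10. In both fractions all 32 genes had both treated arrays above both untreated arrays, against 20.8% of all genes in TM+ and 23.0% in TM- DCs. As differences between means of 2 arrays, *Rsad2* was at 5.04 in TM+ and 2.30 in TM- DCs, and *Irf7* at 3.67 and 0.82. Whether the response differed between fractions within experiment 3 was not tested. Over all 20 sorted arrays, experiments 2 and 4 included, 0 of 32 genes passed in limma, with 3 at an unadjusted p under 0.05. The median difference was 0.60, and 0.01% of all genes passed. Without experiment 4, in a fit that still held the treated arrays of experiment 2, 6 genes had a higher response in TM+ DCs.

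After *Ifit2* the largest responses over both fractions of experiment 3 were those of *Rsad2* at 3.67 (SE 0.36, adjusted p = 8.16e-08), *Cmpk2*, a mitochondrial nucleotide kinase beside it in the genome, at 3.45 (SE 0.36, adjusted p = 2.23e-07), *Ifit3* at 3.36 (SE 0.27, adjusted p = 5.76e-09) and *Ifit1* at 2.79 (SE 0.24, adjusted p = 1.42e-08). *Irf7* rose by 2.25, *Oasl1* by 2.11, *Oas3* by 1.88, *Dhx58* by 1.68, *Rtp4* by 1.64 and *Usp18* by 1.59. The smallest rise was that of *Irf9*, by 0.35 (SE 0.08, adjusted p = 0.00922). *Oas2* differed by 0.78 and did not pass (adjusted p = 0.211). Without the second treated TM- array, 30 genes rose in experiment 3 and 27 still differed between the experiments. With each array centred on its 75th percentile, higher genes made up 59.6% of all calls in place of 77.9%.

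*Dhx58* and *Herc6* did not lie lower after sTM in the TM- cells of experiment 4. *Dhx58* was at 10.14 and 10.13 untreated and 10.29 and 10.30 treated, and *Herc6* at 10.52 and 10.08 untreated and 10.51 and 10.43 treated. *Samd9l* had the largest value in that fraction, 1.31, going from 7.31 and 7.17 to 8.62 and 8.48, while in TM+ DCs it went from 8.52 and 8.04 to 8.03 and 7.44. For *Dhx58* and *Samd9l* the treated TM- arrays were above the untreated ones, and for *Herc6* they overlapped.

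**Figure D4:**
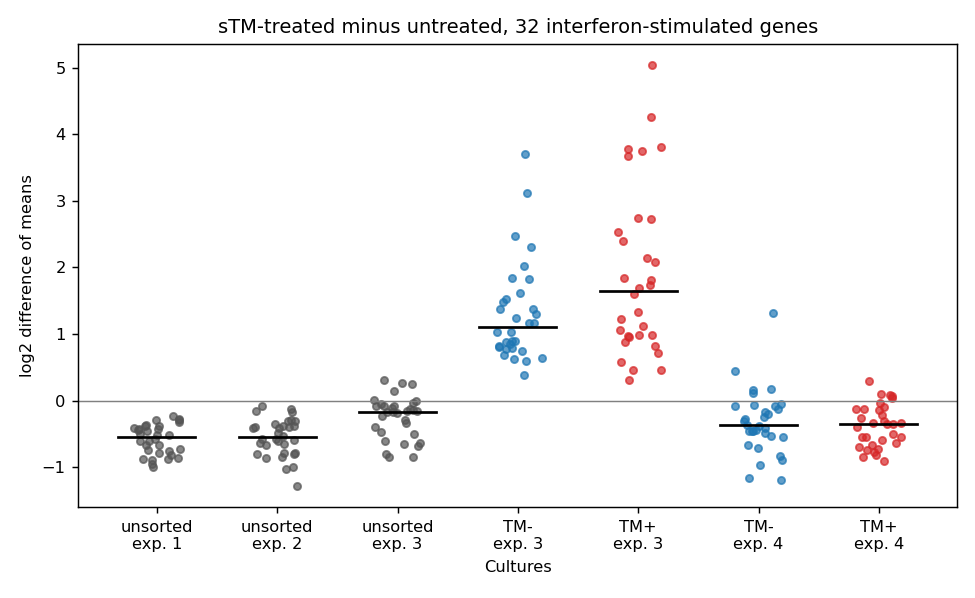
Difference between sTM-treated and untreated DCs of the same experiment and fraction (log2 scale, differences of group means) for the 32 genes; points are genes, black lines medians. All points of both sorted fractions of experiment 3 are above 0, with medians of 1.64 in TM+ and 1.10 in TM- DCs, whereas the medians of experiment 4 are -0.36 and -0.37 and those of unsorted DCs -0.55, -0.55 and -0.17 in experiments 1, 2 and 3.

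**Figure D5:**
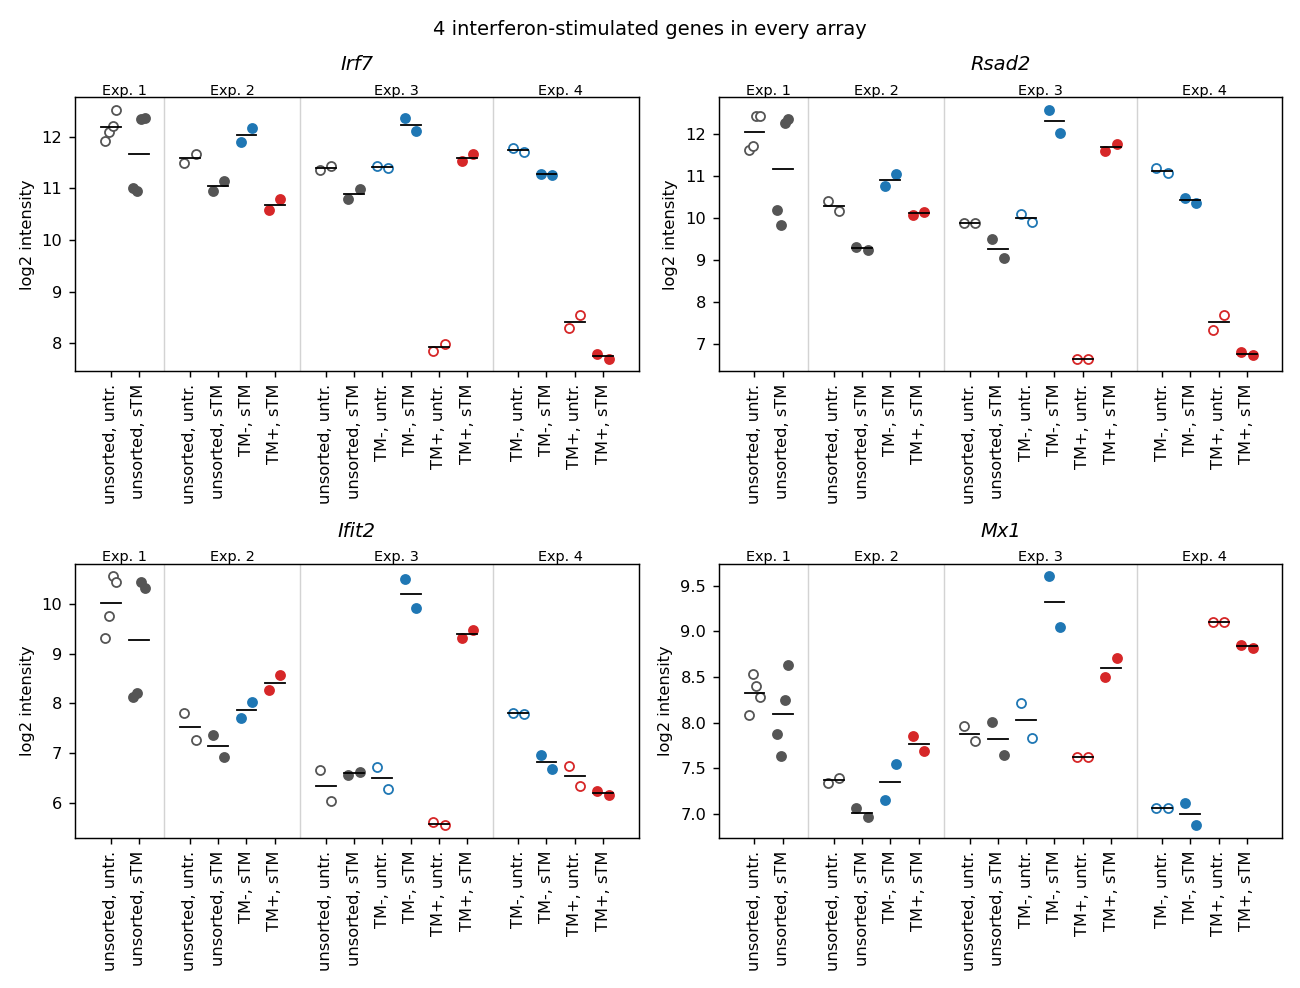
Log2 intensity of *Irf7*, *Rsad2*, *Ifit2* and *Mx1* on each array by experiment and fraction (open symbols, untreated; filled, sTM-treated; black line, mean of a group). *Ifit2* sits higher after sTM in both sorted fractions of experiment 3 and not in experiment 4, and the order of TM+ and TM- DCs for *Mx1* turns between experiments 3 and 4.

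Among cells harvested without sTM, the sorted DCs of experiment 4 held higher levels of some of the genes than those of experiment 3. With no treatment, 14 of the 32 genes were higher in experiment 4 and 0 lower, where 4.12% of all genes were higher, with a median difference of 0.52. Leaving out single arrays gave 9 to 17, and a fit of these sorted arrays alone gave 25 higher.

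In the fit of all unsorted DCs together, no gene passed the test after sTM, and all values were below 0. Over the 16 unsorted arrays of 3 experiments, 32 of 32 differences were below 0 and the median was -0.48, while 0 genes passed in limma, 22 had an unadjusted p under 0.05, and 0 of all 19938 genes (0.0%) passed. *Irf7* ran from 11.36 through a median of 11.79 to 12.52 over the 8 untreated arrays, and from 10.80 through 10.99 to 12.37 over the 8 treated arrays. *Rsad2* ran from 9.88 through 11.02 to 12.44 untreated, and from 9.05 through 9.67 to 12.36 treated. Treated and untreated ranges overlapped widely for both.

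Within experiment 1 the treated arrays were not alike. *Irf7* was at 11.92, 12.08, 12.20 and 12.52 untreated and at 11, 10.95, 12.34 and 12.37 after sTM. *Rsad2* was at 11.64, 11.72, 12.43 and 12.44 untreated and 10.20, 9.84, 12.27 and 12.36 treated, and *Ifit2* at 9.32, 9.75, 10.55 and 10.45 untreated and 8.13, 8.20, 10.44 and 10.32 treated. Treated arrays 1 and 2 lay below all untreated ones for these 3 genes, and the other treated arrays lay among them. *Ifit1* was at 9.98, 10.35, 10.19 and 10.10 untreated and 8.56, 8.71, 9.84 and 10.06 treated.

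The same split ran through the whole set. Taking arrays by their number, the mean over the 32 genes differed between treated and untreated by -0.93 and -1.12 for arrays 1 and 2, with 32 of 32 genes below 0 in both. For arrays 3 and 4 the differences were -0.26 and -0.02, with 29 and 21 genes below 0. The mean over 32 targets of NF-kB, the transcription factor of inflammatory activation, went from 10.96 to 10.12 and from 10.99 to 10.02 for arrays 1 and 2, and from 11.30 to 11.34 and 11.40 to 11.43 for arrays 3 and 4. Why the arrays of this experiment stand apart was not tested. With 4 arrays against 4, only *Ifih1*, the RNA sensor MDA5, was lower (0.0451% of all genes were), and the median difference was -0.55. Same-numbered treated and untreated arrays of this experiment deviated from their group means together. With the array number as a replicate block in all experiments at once, which is not a paired test of experiment 1 alone, 4 genes were lower. In the fit without the block the count was 27 lower with array weights, 21 without treated array 4, 4 without treated array 3, and 0 without any one of untreated arrays 1 and 2 or treated arrays 1 and 2.

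In experiments 2 and 3 most genes shifted in the same direction in the unsorted arrays, by differing amounts. In experiment 2 both treated arrays were below both untreated arrays for 29 of 32 genes, where 19.1% of all genes were, and the median difference was -0.55. In experiment 3 this held for 21 of 32 genes, against 17.8% of all genes, with a median of -0.17. There 2 genes lay higher without overlap, where 31.3% of all genes did. No gene passed in limma in either experiment, with 13 and 5 at an unadjusted p under 0.05 and 0.226% and 0.411% of all genes passing. Without experiment 1 in the fit, 17 genes were lower in experiment 2 and 7 in experiment 3. In experiment 2 *Rsad2* was at 10.41 and 10.17 untreated and 9.33 and 9.25 treated, and *Gbp3* at 8.54 and 8.84 untreated and 7.83 and 7.98 treated. In experiment 3 *Rsad2* was at 9.89 and 9.88 untreated and 9.49 and 9.05 treated, and *Ifit2* at 6.67 and 6.04 untreated and 6.57 and 6.63 treated. *Rsad2* thus separated the treatments in both experiments, and *Ifit2* did not in experiment 3. The response in experiment 3 did not differ from that in experiment 1 or 2 for any gene at the threshold (limma, 0 of 32 each, with 2 and 3 at an unadjusted p under 0.05 and 0.0351% and 0.105% of all genes passing).

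The remaining genes followed with wide overlap. *Oasl1* was at 10.97, 10.73, 11.29 and 11.47 untreated and 9.43, 9.50, 11.09 and 11.30 treated in experiment 1, at 9.66 and 9.83 and then 8.80 and 9.35 in experiment 2, and at 9.62 and 9.63 and then 9.26 and 9.20 in experiment 3. *Xaf1* was at 9.78, 9.82, 9.93 and 10.14 untreated and 8.31, 8.37, 10.07 and 10.23 treated in experiment 1, at 8.67 and 8.48 and then 7.98 and 8.03 in experiment 2, and at 9.30 and 9.04 and then 8.95 and 8.92 in experiment 3. Treated arrays were below untreated ones for both genes in experiments 2 and 3, and the arrays of experiment 1 split as before. Over the 8 untreated and 8 treated arrays, medians were 7.37 and 6.56 for *Mx2*, 9.60 and 9.12 for *Dhx58*, 10.58 and 9.66 for *Herc6* and 9.59 and 8.47 for *Gbp3*, with ranges that overlapped for each.

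In experiment 3 the same treatment thus went with a rise in sorted DCs. In unsorted DCs no gene passed, with 27 of the 32 differences below 0 and 5 above. The difference between these responses was tested, and 26 of the 32 genes had a lower response in unsorted DCs, where 2.31% of all genes did, with a median difference of -1.66. It was -4.28 for *Rsad2* (SE 0.62, adjusted p = 5.89e-05), -4.01 for *Ifit3* (SE 0.47, adjusted p = 4.2e-06) and -3.58 for *Cmpk2*. The count was 18 with centring on the 75th percentile, where higher genes made up 44.6% of all calls in place of 28.4%, and 18 to 29 when single arrays were left out. Sorted and unsorted samples were handled differently by design, so cell sorting and any change during it cannot be told apart here.

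Because an unsorted culture holds both fractions, its level was then set against theirs, in comparisons that were added after these values had been seen. In untreated experiment 3 no gene differed between unsorted and TM- DCs (0 of 32 genes and 0 of all 19938 genes, or 0.0%, by limma, with 0 and 26 at an unadjusted p under 0.05), and the median difference was -0.09. The 32 genes then lay between the fractions or overlapped 1 of them, as 0 of 32 were below every array of both fractions, where 4.73% of all genes were, and 0 of 32 were above them. After sTM in experiment 3, 29 of the 32 genes were lower in the unsorted arrays than in every array of both fractions, where 10.3% of all genes were, the exceptions being *Irf9*, *Oas2* and *Ifi35*. In treated experiment 2 it was 22 of 32 genes, where 10.4% of all genes were.

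Tested against each fraction, the treated unsorted DCs of experiment 3 were lower than TM- DCs for 31 of 32 genes (3.99% of all genes, median -1.48) and lower than TM+ DCs for 11 (1.17% of all genes, median -0.61). The first count was 26 without the second treated TM- array, and the second ran from 1 to 12 when single arrays were left out and was 19 without experiment 1. *Ifit2* showed this most plainly, with unsorted treated arrays at 6.57 and 6.63 below TM- arrays at 10.49 and 9.92 and TM+ arrays at 9.31 and 9.48. In experiment 2 the unsorted treated DCs were lower than TM- DCs for 3 genes (0.466% of all genes, median -0.66) and lower than TM+ DCs for 12 (4.55%, median -0.67). The first count was 0 without either TM- array, 8 with array weights and 23 without experiment 1, and the second was 5 with centring on the 75th percentile and, without experiment 1, 19 lower and 1 higher. *Samd9l* had the largest difference there, -1.92 against TM+ DCs (SE 0.25, adjusted p = 2.18e-05), and *Parp14* was at -1.03 against TM- DCs (SE 0.22, adjusted p = 0.021).

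Genes upstream of the program were counted in the same way, and for these and the lists that follow the shares over all genes are 18.6% higher and 18.7% lower between fractions and 3.61% higher after sTM in sorted experiment 3. Of 16 measured interferon ligands, *Ifnk* alone passed between fractions, lower by -0.21 in TM+ DCs, and *Ifnz* alone rose in sorted experiment 3, by 0.57. In mean level 13 of the 16 lay below the median gene, with *Ifnk* at percentile 10.6 and *Ifnb1* at percentile 19.5 of all genes. At such low signals transcript and background cannot be told apart here. *Ifnb1*, the first type I interferon made on infection, lay between 5.01 and 6.35 on all arrays and did not pass in either comparison. Of 10 receptor and JAK-STAT genes, 8 were lower in TM+ DCs, among them *Ifnar1* by -0.76 (SE 0.11, adjusted p = 8.93e-06), *Stat3* by -0.71, *Ifnar2* by -0.61 and *Jak2* by -0.51. *Ifngr1*, a chain of the interferon gamma receptor, was higher by 0.80 (SE 0.07, adjusted p = 4.87e-08). After sTM in experiment 3, *Tyk2* alone of the 10 rose, by 0.50. It was highest on the second treated TM- array of that experiment, and the call was not tested without that array.

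Sensors and their signalling genes split. Of 19 measured, 9 were higher and 6 lower in TM+ DCs, with *Tlr8* higher by 2.08 (SE 0.21, adjusted p = 1.39e-07) and the kinase gene *Tbk1* lower by -1.0, followed by *Irf8* at -0.77 and *Ticam1* at -0.74. After sTM in experiment 3, 4 of them rose, *Tlr3* by 1.17, *Ddx58* by 1.15, *Ikbke* by 0.72 and *Irf1* by 0.69, and 0 fell. Of 11 negative regulators, 2 were higher and 6 lower in TM+ DCs, led by *Socs3* at -1.37 (SE 0.18, adjusted p = 4.59e-06), and 4 rose after sTM, *Trex1* by 0.95, *Socs1* by 0.58, *Adar* by 0.58 and *Samhd1* by 0.53.

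Further interferon targets, which were not among the 34 genes, were then counted. Of 65 measured type I interferon targets, 31 were lower and 5 higher in TM+ DCs, with *Ccl5* at -2.32, *Isg20* at -1.46 and *Ube2l6* at -1.42. In sorted experiment 3, 45 of them rose after sTM, *Ifi44l* by 2.91, *Cxcl10* by 2.79 and *Ifi209* by 2.48, and 1, *Ifi27*, fell. Of 22 measured targets of interferon gamma, 11 were lower and 1, *Ciita*, was higher in TM+ DCs, *Nos2* being lower by -2.40 and *Gbp5* by -2.12, and 13 rose after sTM in experiment 3, *Gbp5* by 2.47 and *Gbp4* by 2.10. The response of unsorted DCs in experiment 3 was lower than that of sorted DCs for 31 of the 65 and 8 of the 22.

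Targets of NF-kB moved with the interferon-stimulated genes. Of 32 measured, 31 were lower in TM+ DCs and 0 higher (median -1.20), *Ptgs2* by -3.17, *Cxcl1* by -2.84, *Il12b* by -2.74 and *Il6* by -2.67, where 18.7% of all genes were lower. After sTM, 16 rose in sorted experiment 3, *Il12b* by 4.14, *Cd40* by 2.22 and *Il23a* by 1.88, and 0 passed in experiment 4. Over the 36 arrays the mean of these targets had a Pearson r of 0.89 with the mean of the 32 genes. In the untreated TM+ DCs of experiments 3 and 4 the NF-kB mean was 9.33 and 9.84, against 11.06 and 11.33 in TM- DCs, and after sTM it was 10.75 and 9.38 in TM+ DCs and 11.32 and 11.43 in TM- DCs. The part of this in the levels of the 32 genes was not tested.

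Markers of other cells moved as well. Between fractions, 12 of 18 DC markers, 11 of 18 granulocyte markers and 9 of 14 monocyte markers were higher in TM+ DCs and 3, 3 and 2 lower, while 0 of 14 T and NK cell markers passed in limma. In sorted experiment 3, 5 of the 18 granulocyte markers fell after sTM, *Ngp* by -2.38, *S100a9* by -2.10, *S100a8* by -2.02 and *Ltf* by -1.77, and 2 rose. Over all genes measured, 204 fell in that comparison and 720 rose. Of 11 markers of plasmacytoid DCs, the main interferon producers, 0 passed in that comparison, their summed intensity being 3132 to 3206 in untreated and 3451 to 4152 in treated TM- DCs, and 2662 to 2693 and 3282 to 3339 in TM+ DCs. The part of these cells in the results was not tested.

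The genes outside the set whose pattern was most like the mean of the 32, by Pearson r over the 36 arrays, were *Gbp5* at 0.981, *Ube2l6* at 0.963, *Trim30d* at 0.951, *Tmem106a* at 0.944, *Mlkl* at 0.943, *Slfn5* at 0.942, *Rnf213* at 0.936, *Gbp2b* at 0.935, *Cd40* at 0.934 and *Slfn4* at 0.926. Of these 10, 7 stood in the lists of interferon and NF-kB genes above. The arrays share experiments, so the r values describe these 36 arrays only.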

How the data were processed

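RNA of 36 DC samples was hybridised to Affymetrix Mouse Gene 1.0 ST arrays. The authors deposited 1 table of intensity values on a linear scale for 35556 transcript clusters, which the submitters' processing notes link to RMA (background correction, quantile normalization and probe summary), with no statement of which arrays were processed as 1 set. Values were log2-transformed. Clusters were named from the platform annotation (21789 had 1 symbol, 1621 several and 12146 none), and for each of 19938 symbols the cluster with the highest mean was kept. Differences were tested in limma 3.58.1 (R 4.3.3, statmod 1.5.0) with Benjamini-Hochberg adjustment over all 19938 genes, and an adjusted p under 0.05 was called. Sorted arrays were fitted with sorting by treatment and unsorted arrays with treatment, each with experiment as a random block (correlation 0.396 and 0.375), and values of single experiments came from 1 fit of the 16 experiment, fraction and treatment means over 36 arrays. The main fits did not pair samples by array number, and an alternative fit took the numbers as a replicate block in all experiments at once. In experiment 1, deviations of same-numbered arrays from their group means correlated at 0.56 to 0.75 in 4 of 4 pairs. Differently numbered arrays were not compared. Because treated arrays 1 and 2 stood apart from 3 and 4, the check cannot tell pairing by number from that split. In data simulated for the comparison of fractions, 71.6% of genes changed by 0.5 and 100% of those changed by 1 on the log2 scale were called. For sTM in sorted experiment 3 the shares were 37.3% and 95.5%. Whether the shares for the fractions hold where their difference varies by experiment was not tested. Over the 32 genes its median was -0.06 in treated experiment 2 and -1.18 in treated experiment 4. The alternatives were scaling, filters, array weights, the treatment of experiment and arrays left out. Array values are given for the gene with the largest SD of each functional group and for the 3 largest differences between fractions; *Mx1* and *Samd9l* were added after their values were seen. The genes and lists were chosen with earlier results of these data known, and precision is set by the number of arrays.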

Additional observations from a re-analysis of the deposited data

Results flagged for a closer look

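Among the 32 genes, 27 responded differently to sTM in the sorted cells of experiments 3 and 4, all higher in experiment 3, by the test of the difference itself. In experiment 3, 26 responded differently in unsorted and sorted DCs, all lower in unsorted DCs. Between experiments 3 and 4, the gap between TM+ and TM- DCs, as a mean over untreated and treated cells, differed for 7. Of these, 4 were shifted toward TM+ DCs (*Mx1*, *Samd9l*, *Eif2ak2* and *Ifi35*) and 3 toward TM- DCs (*Irf7*, *Rsad2* and *Oasl2*). In 66 sets of 1 gene, or the mean, in 1 group over all its experiments, no array stood far from the rest, a check that cannot see an array apart within its own experiment.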

How the results depend on the processing

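Of 964 counts of called genes recomputed under alternatives, 877 stayed within 1.5 times the reported count and 87 did not; of 9235 values of single called genes, 8655 stayed called, 580 did not, and 0 changed sign. The counts of genes lower in TM+ DCs (24 over both treatments, 23 untreated), the 31 that rose in sorted experiment 3 and the 27 that differed between experiments 3 and 4 stayed within 1.5 times under every alternative run. The cause of the shifts below was not tested, except that fits on fewer arrays have fewer samples.

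Genes lower in treated TM+ DCs numbered 24 with arrays centred on the 75th percentile, 6 with no experiment term and 6 without experiment 4. For sTM in sorted DCs, array weights gave 5 over both fractions, 14 in TM+, 1 in TM- and 2 for the difference between fractions. Without experiment 4 these were 24, 25, 6 and 6, without experiment 3 they were 1 over both fractions and 1 in TM- DCs, and with experiment as a fixed factor 1 passed in TM+ DCs. The medians over both fractions and in TM- DCs turned negative without experiment 3, and that in TM- DCs also with array weights. For sTM in sorted experiment 4, 21 passed with array weights (20 lower, 1 higher), and 14 were lower without experiment 1 and 15 in a fit of sorted experiments 3 and 4.

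In unsorted DCs all calls named here for single experiments were lower: experiment 1 gave 0 with centring, 27 with array weights and 0 in a fit of unsorted arrays. Experiment 2 gave 1 with quantile normalization and 17 without experiment 1. Experiment 3 gave 7 with array weights and 7 without experiment 1, and its difference from experiment 1 gave 17 with array weights and from experiment 2 gave 2 without experiment 1. Untreated experiment 4 against 3 gave 26 with array weights, 23 without experiment 1 and 25 in the sorted fit, and the difference of their gaps between fractions 16, 14 and 16. Unsorted against treated TM+ DCs of experiment 3 gave 6 with centring, 7 with quantile normalization, 19 with array weights and 19 without experiment 1. In experiment 2, unsorted against TM- DCs gave 1 with centring, 8 with array weights and 23 without experiment 1, and against TM+ DCs 5 with centring and 20 without experiment 1.

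Leaving out single arrays gave 24 to 26 genes lower in TM+ DCs, 19 to 24 untreated and 7 to 17 treated. For sTM it gave 0 over both sorted fractions, 0 to 6 in TM+, 0 in TM- DCs and for their difference, 0 to 1 in unsorted DCs, 29 to 31 in sorted experiment 3 and 0 to 1 in experiment 4, with 25 to 29 for their difference. Unsorted experiments 1, 2 and 3 gave 0 to 21, 0 to 1 and 0, and the differences of experiment 3 from 1 and 2 gave 0. Unsorted minus sorted gave 18 to 29, experiment 4 against 3 untreated 9 to 17, and their gaps 3 to 10. Unsorted against TM- DCs gave 0 untreated and 23 to 31 treated in experiment 3 and 0 to 7 in experiment 2, and against TM+ DCs 1 to 12 and 4 to 12.

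Outside experiment 1 the correlations by array number were lower, and no main fit used the numbers. Deviations of same-numbered arrays correlated at -0.05 to 0.07, -0.54 to 0.45 and 0.08 to 0.35 in experiments 2, 3 and 4. In experiment 4 all of them were above 0, with 4 of 6 over 0.1, so pairing there was not settled. With a replicate block over all experiments the counts were 24 for TM+ against TM- DCs, 22 untreated and 12 treated, 31 for sTM in sorted experiment 3 and 30 for its difference from experiment 4, 2 for sorted experiment 4, 4 and 3 for unsorted experiments 1 and 2, 11 for the gaps of experiment 4 against 3 and 9 for unsorted against TM- DCs in experiment 2.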
